A study of Drosophila melanogaster with 12 samples.

Results

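The vacuolar ATPase (V-ATPase) is the proton pump that acidifies endosomes, lysosomes and synaptic vesicles. Its cytosolic V1 sector splits ATP and turns a central shaft, and its membrane sector V0 carries protons through a ring of proteolipids. In neurons the proton gradient it builds drives the loading of transmitter into synaptic vesicles, and in flies its subunit genes carry the prefix Vha. Genes with a current symbol that starts with Vha were taken whether or not they moved, and 10 of 33 such genes in the RefSeq table had a value, out of 6646 named genes with a value in the series. The 10 comprised 6 of 13 genes of V1, 3 of 18 genes of V0 and 1 of 2 genes of the accessory protein Ac45. The other 23 genes had no spot that carries their name. Subunits F and G of V1 and subunits c double prime and e of V0 were thus not measured under any gene.

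Heads of unmated Oregon-R wild-type males of Drosophila melanogaster withdrawn from pentylenetetrazol (PTZ) were compared with heads of untreated males of the same stock and age. PTZ, a blocker of GABA-A receptors, provokes seizures. Males 3 to 4 days old at the start (the sample labels give 4 to 5 days after eclosion) fed for 7 days on food with 8 mg/ml PTZ and were then kept on normal food. Their heads were taken at day 8, 10 or 14 from the start, after 1, 3 or 7 days of withdrawal, and the untreated males received normal food throughout. Each array of 2 colours paired pooled heads from withdrawn males with a pool from untreated males killed on that day, and vials held 30 flies at the start.

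The measured value is a log2 ratio of withdrawn over untreated heads, relative to the median of its array, so 0 is the level of the median spot. There were 4 arrays each for day 10 and day 14. The 4 columns of day 8 were identical wherever they overlapped (4790 of 4790 spots in columns 1 and 2) and counted as 1 sample. The columns held 2316 to 7454 values at day 8, 15057 to 18354 at day 10 and 4310 to 19807 at day 14, and the small number of arrays limits every mean. The medians removed were 0.16 to 0.194 at day 8, -0.309 to -0.198 at day 10 and 0.558 to 1.588 at day 14. Higher and lower rest on the channel labels, which put withdrawn heads in Cy5 on every array. The direction is not settled, because the series text speaks of dye swaps in 2 of 4 arrays a day and the protocol given for replicates 1, 2 and 3 of day 10 assigns Cy3 to withdrawn heads. A ratio gives no level. Subunits were therefore not ranked by abundance, and fewer cells of a type and less RNA per cell cannot be told apart in whole heads. Of the markers of head cell types, 8 of 15 photoreceptor genes, 8 of 11 glial genes and 2 of 12 neuronal genes had a value.

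No V-ATPase gene passed an adjusted p of 0.05 in limma at any day or between days. At day 10, limma called 0 of 4661 genes (0.00%) and 0 of 8 V-ATPase genes, and 2 of the 8 had an unadjusted p under 0.05 against 13.2% of all genes tested. At day 14 it called 0 of 3010 genes (0.00%) and 0 of 8 V-ATPase genes, with 1 of 8 under an unadjusted p of 0.05 against 6.64%. In the difference from day 10 to day 14 it called 0 of 2385 genes (0.00%) and 0 of 7 V-ATPase genes, with 1 of 7 against 7.21% at an unadjusted p under 0.05. At day 8 VhaAC45 was the 1 pump gene with enough columns for the test. It was not called, against 19 of 519 genes (3.66%) that were, and its unadjusted p was not under 0.05 (7.71% of genes were). Its mean was above 0, as for 54.7% of genes. The values below are therefore a description of each subunit gene and its spread.

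Vha26 (CG1088) had the most distinct course of the pump genes. It encodes subunit E, part of the peripheral stalk that holds the ATP-splitting head still while the shaft turns, and the fly has 1 gene for it. Its log2 ratio was -0.26 at day 8, where 2 columns held a value. It was then -0.26, -0.37, -0.60 and -0.24 in replicates 1 to 4 of day 10. In replicates 1 to 4 of day 14 it was 0.05, 0.18, 0.69 and 0.10. All 4 arrays of day 10 thus lay below the array median and all 4 of day 14 above it, and the days did not overlap. The mean was -0.36 ± 0.16 (SD, n = 4) at day 10 and 0.25 ± 0.30 (SD, n = 4) at day 14.

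The day 14 mean of Vha26 exceeded that of day 10 by 0.62 (SE 0.17, 95% interval 0.24 to 0.99), with an unadjusted p of 0.00392 and an adjusted p of 0.641 in limma. It was rank 17 from the highest among the 2385 differences. Vha26 was the 1 of 7 V-ATPase genes whose day 14 arrays all lay above its day 10 arrays, a pattern that 4.99% of all genes tested at both days showed, and no V-ATPase gene showed the opposite pattern, against 4.07%. The lowest adjusted p among all 2385 genes was 0.449. The SE, interval and p treat the arrays of a day as independent, although those of day 10 resembled each other in pairs (see Vha100-4 below). The size of the difference moved with replicate 3 of either day. Without day 14 replicate 3 it was 0.47 and without day 10 replicate 3 it was 0.54. If the protocol given for replicates 1, 2 and 3 of day 10 holds and their signs are reversed, the day 10 mean was 0.25 and the difference was 0.01.

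**Figure D1:**
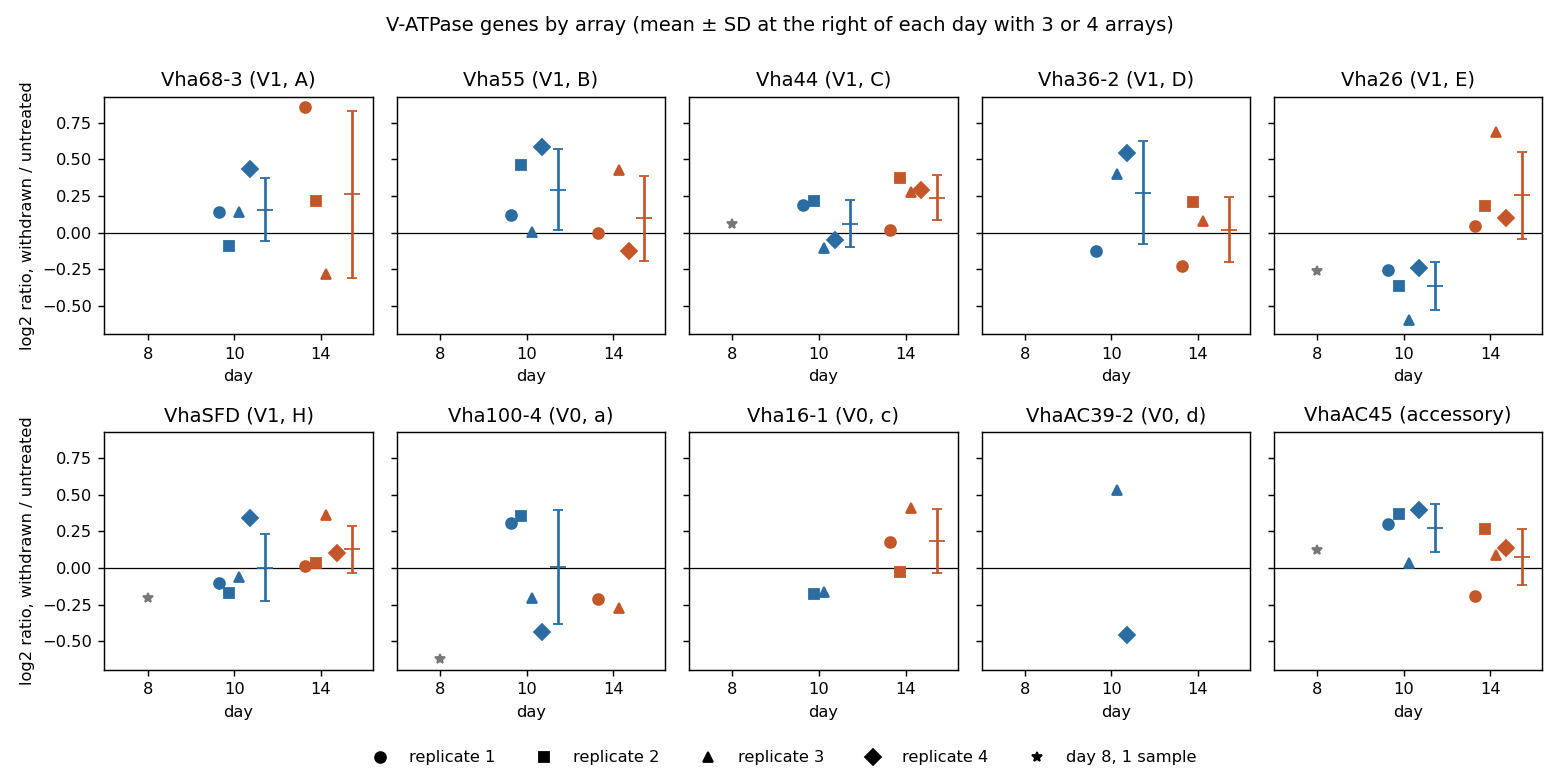
Log2 ratio of withdrawn over untreated heads (vertical axis) of the 10 measured V-ATPase genes on each array of days 8, 10 and 14 (horizontal axis). Symbols mark the replicate, stars the lone day 8 sample, and bars the mean ± SD where 3 or 4 arrays gave a value; the 4 day 10 points of Vha26 lie between -0.60 and -0.24 and its day 14 points between 0.05 and 0.69.

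The twin spots of Vha26 matched closely, with a median absolute difference of 0.096 over 8 arrays and a largest of 0.19. Spots numbered near Vha26 also lay below the array median at day 10, where they were lowest in replicate 1 and Vha26 in replicate 3. At day 14 both were highest in replicate 3. The part of the neighbours' shift in the values of Vha26 was not tested. Over the spots within 200 spot numbers on either side, the median log2 ratio was -0.17, -0.08, -0.04 and -0.10 in replicates 1 to 4 of day 14, against -0.29, -0.23, -0.19 and -0.18 in replicates 1 to 4 of day 10. Its neighbours were thus below the array median on all 8 arrays, and further below it at day 10.

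Measured against those neighbours, a choice made after seeing the data, Vha26 stood at 0.21, 0.27, 0.73 and 0.20 on the day 14 arrays and at 0.03, -0.14, -0.40 and -0.06 on the day 10 arrays. The days still did not overlap, but the day 10 mean was -0.14 ± 0.19 (SD, n = 4), nearer to 0 than against the whole array. The difference between the days was then 0.49 (adjusted p = 0.680 in limma). By their labels, the slides of day 10 bear array numbers from another range than those of day 14, so slide series and day cannot be told apart.

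**Figure D2:**
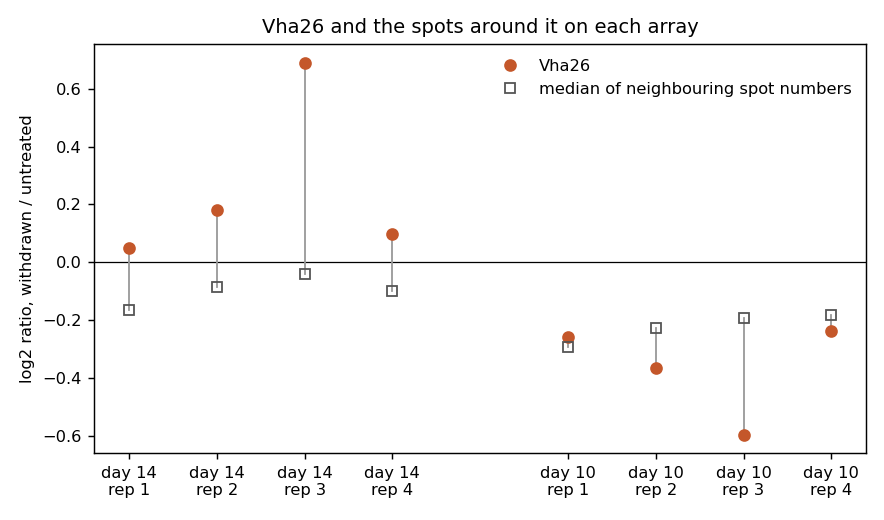
Log2 ratio of withdrawn over untreated heads (vertical axis) of Vha26 (filled circles) and the median of the spots within 200 spot numbers of it (open squares) on each array of day 14 and day 10. The neighbours run from -0.17 to -0.04 on the day 14 arrays, against -0.29 to -0.18 on the day 10 arrays, and Vha26 lies above them on all day 14 arrays.

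The ATP-splitting hexamer of V1 is built of subunits A and B. Vha55 (CG17369), the 1 gene for subunit B, was above the array median on all 4 day 10 arrays and had both signs at day 14. Its log2 ratio was -0.0035, 0.43 and -0.13 in replicates 1, 3 and 4 of day 14, against 0.12, 0.46, 0.0035 and 0.59 in replicates 1 to 4 of day 10, and it had no value at day 8. The days overlapped, and day 10 replicate 3 lay almost at 0. The mean was 0.10 ± 0.29 (SD, n = 3) at day 14 and 0.29 ± 0.28 (SD, n = 4) at day 10 (adjusted p of 0.930 and 0.378 in limma), and the difference was -0.19 (95% interval -0.64 to 0.25).

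Vha68-3 (CG5075) is 1 of 3 genes for the catalytic subunit A. Its log2 ratio was 0.86, 0.21 and -0.28 in replicates 1, 2 and 3 of day 14, against 0.14, -0.09, 0.14 and 0.43 on the day 10 arrays. It had the widest spread of the genes tested at day 14, with a mean of 0.26 ± 0.57 (SD, n = 3, adjusted p = 0.808 in limma), and without day 14 replicate 1 that mean was -0.03. At day 10 it averaged 0.16 ± 0.21 (SD, n = 4), and 3 of 4 arrays were above 0.

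The stalks of V1 hold the head and pass on its rotation. Vha44 (CG8048) encodes subunit C, a stalk protein released when V1 and V0 come apart. Averaged over its 4 spots, it stood at 0.06 at day 8, where 2 columns held a value. Vha44 was at 0.19, 0.22, -0.11 and -0.05 on the day 10 arrays and at 0.02, 0.37, 0.28 and 0.29 on the day 14 arrays. All day 14 arrays were above 0, and at day 10 replicates 1 and 2 were above and replicates 3 and 4 below it. The mean was 0.06 ± 0.16 (SD, n = 4) at day 10 and 0.24 ± 0.15 (SD, n = 4) at day 14, where the adjusted p was 0.728 in limma.

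The 2 pairs of spots that carry the name Vha44 differed from each other in opposite directions on the 2 days. The first pair had a mean of 0.15 ± 0.09 at day 14 and 0.18 ± 0.15 at day 10 (SD, n = 4 each). The second pair had a mean of 0.33 ± 0.25 at day 14 and -0.05 ± 0.18 at day 10 (SD, n = 4 each). The first pair minus the second was 0.12, -0.22, -0.40 and -0.19 on the day 14 arrays, against 0.21, 0.19, 0.23 and 0.28 on the day 10 arrays, so the gap between the pairs had 1 sign on every day 10 array and the other on 3 of 4 day 14 arrays. The difference between days for this gene was 0.18 (95% interval -0.14 to 0.49), and it was 0.38 in the second pair and -0.02 in the first. Against the spots numbered around them, the first pair minus the second was 0.29, -0.05, -0.37 and -0.06 on the day 14 arrays, against 0.24, 0.31, -0.09 and -0.08 on the day 10 arrays. The gap thus had both signs at both days, and its single sign at day 10 was lost. The pairs then had means of 0.23 ± 0.10 for the first and 0.28 ± 0.27 for the second, against 0.13 ± 0.29 and 0.04 ± 0.08 at day 10 (SD, n = 4 each).

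**Figure D3:**
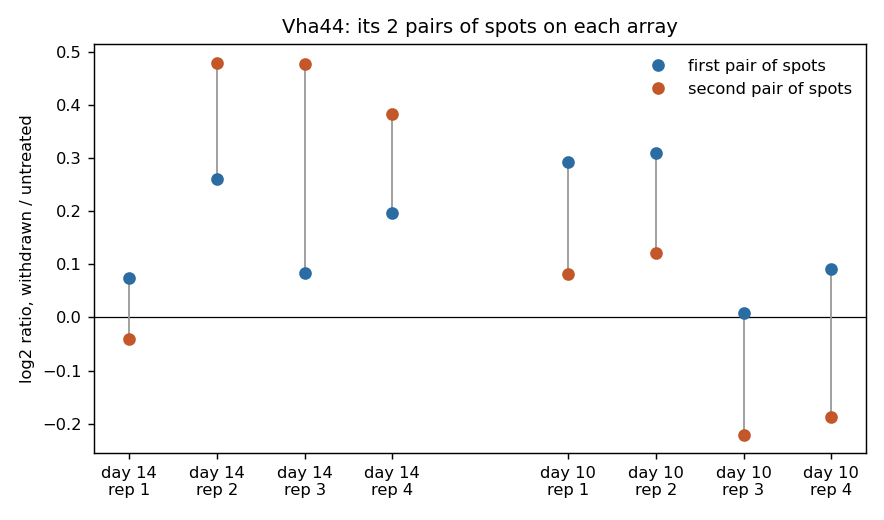
Log2 ratio of withdrawn over untreated heads (vertical axis) of the 2 pairs of Vha44 spots on each array of day 14 and day 10, each point the mean of a pair and each line joining the pairs of 1 array. The first pair is above the second on all 4 day 10 arrays, by 0.19 to 0.28, and below it on 3 of 4 day 14 arrays.

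Vha36-2 (CG13167) is 1 of 3 genes for subunit D, the central rotor shaft. It was read on 1 of its 2 pairs of spots. Its log2 ratio was -0.23, 0.21 and 0.08 in replicates 1, 2 and 3 of day 14, against -0.13, 0.40 and 0.55 in replicates 1, 3 and 4 of day 10. Both days held both signs and overlapped, with means of 0.02 ± 0.22 at day 14 and 0.27 ± 0.35 at day 10 (SD, n = 3 each). Limma gave an adjusted p of 0.989 and 0.465.

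VhaSFD (CG17332) is the 1 gene for subunit H, which regulates the joining of V1 and V0. It stood at -0.21 at day 8, where 1 column held a value. VhaSFD was at -0.10, -0.17, -0.06 and 0.34 on the day 10 arrays and at 0.01, 0.04, 0.36 and 0.10 on the day 14 arrays. The day 14 arrays were all above 0, and at day 10 only replicate 4 was. The mean was 0.0033 ± 0.23 (SD, n = 4) at day 10 and 0.13 ± 0.16 (SD, n = 4) at day 14, with adjusted p of 0.992 and 0.828 in limma.

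Of V0, Vha16-1 (CG3161) encodes the proteolipid subunit c, the ring that carries the protons. It stood at 0.18, -0.03 and 0.41 in replicates 1, 2 and 3 of day 14, against -0.18 and -0.16 in replicates 2 and 3 of day 10. Both day 10 values were below all 3 values of day 14, but 2 arrays are too few for the test, and day 14 alone had an adjusted p of 0.808 in limma. Beside Vha26 it was the gene with every day 14 value above every day 10 value, but it had 3 values against 2. The share of 4.99% covers genes tested at both days, and no share was computed for genes with so few arrays. The order in Vha16-1 is therefore not set beside that of Vha26.

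Vha100-4 (CG7678), 1 of 5 genes for subunit a, the membrane arm with the proton channels, was the measured gene that lay below the array median at day 14. It stood at -0.62 at day 8, where 1 column held a value. Vha100-4 was at 0.31, 0.36, -0.20 and -0.44 on the day 10 arrays and at -0.21 and -0.27 in replicates 1 and 3 of day 14. At day 10 replicates 1 and 2 were high and replicates 3 and 4 low, so the mean of 0.01 ± 0.39 (SD, n = 4, adjusted p = 0.986 in limma) lies between 2 pairs of arrays of opposite sign. The day 10 arrays fell into the same pairs over all genes, where Pearson's r was 0.50 for replicates 1 and 2, 0.55 for replicates 3 and 4, and -0.07 to 0.03 for arrays of different pairs. VhaAC39-2 (CG4624), 1 of 2 genes for subunit d, which couples the ring to the shaft, had values in day 10 replicates 3 and 4, at 0.53 and -0.46. Its twin spots lay up to 1.23 apart, so no direction is given for it.

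VhaAC45 (CG8029) encodes an accessory protein of the membrane sector and was the V-ATPase gene measured in every column of the series. It stood at 0.12 at day 8 (adjusted p = 0.969 in limma, with the spread borrowed from the other days), at 0.30, 0.37, 0.04 and 0.40 on the day 10 arrays and at -0.19, 0.26, 0.09 and 0.14 on the day 14 arrays. It was above 0 on all arrays except day 14 replicate 1. The mean was 0.27 ± 0.16 (SD, n = 4, unadjusted p = 0.0243, adjusted p = 0.289 in limma) at day 10 and 0.08 ± 0.19 (SD, n = 4) at day 14. The difference from day 10 to day 14 was -0.20 (95% interval -0.53 to 0.13). Against the spots numbered around it, the day 10 mean of VhaAC45 was 0.053 (adjusted p = 0.949 in limma) and the difference was -0.016. With replicates 1, 2 and 3 of day 10 reversed, its day 10 mean was -0.077.

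**Figure D4:**
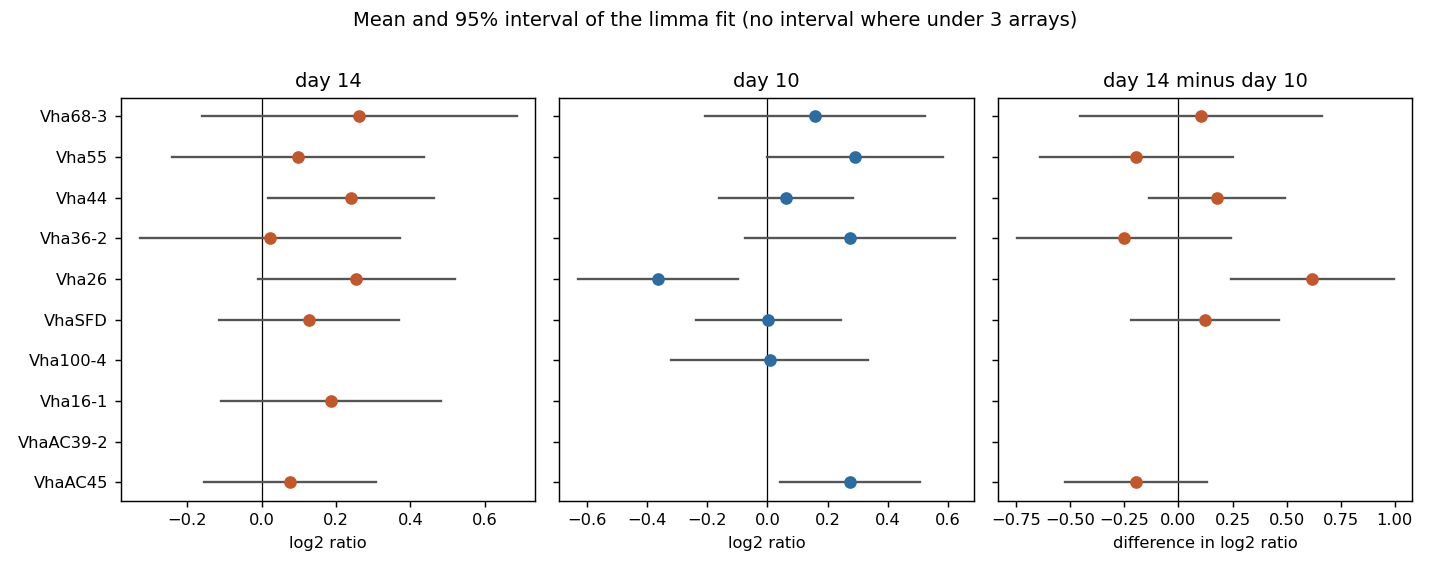
Mean log2 ratio of withdrawn over untreated heads at day 14 and at day 10, and the difference of day 14 minus day 10 (horizontal axes), for the V-ATPase genes with at least 3 arrays; lines are 95% intervals of the limma fit. All 8 day 14 means are above 0, and at day 10 the mean of Vha26 is the 1 below 0.

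As a family the pump genes stood slightly above the array median at day 14, with 8 of 8 tested genes above 0 against 52.2% of all genes tested. Their median log2 ratio was 0.16, against 0.01 over all genes, and single genes ranged from 0.02 to 0.26. Without replicate 3 of that day 6 of 8 were above 0, and against neighbouring spot numbers 7 of 8. Vha100-4, below 0 on 2 arrays, had too few arrays to enter that count. Vha26, Vha44 and VhaSFD, for subunits E, C and H, were above 0 on every day 14 array, that is 3 of 8 against 14.5% of all genes, and 0 of 8 were below 0 on every array against 12.8%. Of the 4 arrays of day 14, replicate 3 held the highest family median, 0.28 over 9 measured genes, and replicate 1 the lowest, 0.01 over 9 genes. Replicate 2 had a median of 0.21 over 7 genes and replicate 4 of 0.10 over 5 genes. Without replicate 3 the family median over the day was 0.07.

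At day 10 the family held both directions, with 7 of 8 tested genes above 0 against 53.1% of all genes, and a median of 0.11 against 0.01 over all genes, which without setting the array medians to 0 was -0.14 against -0.23. With the signs of replicates 1, 2 and 3 reversed the count was 5 of 8 and the median 0.03, and Vha26 was then above 0 and Vha55 at 1e-04. Against neighbouring spot numbers the count was also 5 of 8 and the median 0.05, and with genes read on 2 arrays included the median was 0.05. Setting them to 0 removed a shift of 1.17 at day 14 in the median of all genes. Among the 8 tested genes Vha26 at -0.36 was the exception and lay furthest from 0, while VhaSFD (0.0033) and Vha100-4 (0.01) lay almost at 0. Vha16-1 (-0.18 and -0.16) and VhaAC39-2 (both signs) had too few arrays to enter that count. Vha55 and VhaAC45 were above 0 on every array (2 of 8, against 12.2% of all genes) and Vha26 below 0 on every array (1 of 8, against 13.1%). The median absolute mean of the 8 genes was 0.22, against 0.12 over all genes tested. From day 10 to day 14 the difference was above 0 for 4 of 7 genes against 48.6%, with a median of 0.11 against -0.01 over all genes. Without day 14 replicate 1 that family median was -0.11, so its sign rests on 1 array.

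**Figure D5:**
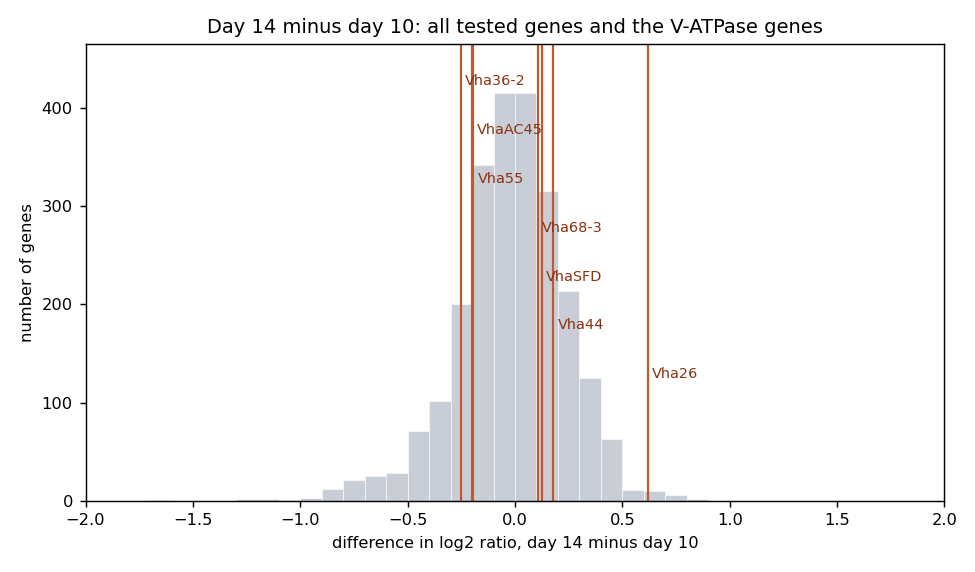
Number of genes (vertical axis) by the difference in log2 ratio of day 14 minus day 10 (horizontal axis), for the 2385 genes tested at both days, in bars of 0.1. Lines mark the 7 V-ATPase genes; 6 lie between -0.25 and 0.18, in the body of the distribution, and Vha26 lies at 0.62.

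V1 and the membrane genes were compared as groups without a test. At day 14 the 6 tested V1 genes had a median of 0.18 and all lay above 0, and the 2 tested membrane genes, Vha16-1 and VhaAC45, had a median of 0.13. At day 10 the 6 V1 genes had a median of 0.11, with 5 above 0, and Vha100-4 and VhaAC45 had a median of 0.14. Subunits with 1 gene in the fly (B, C, E and H were measured) had a day 14 median of 0.18, against 0.03 at day 10. The 4 tested genes of subunits with several genes had a median of 0.13 at day 14 and 0.22 at day 10, over sets that differ by 1 gene (Vha16-1 at day 14, Vha100-4 at day 10).

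Several of the duplicated subunit genes, Vha68-3, Vha36-2 and VhaAC39-2 among them, are known in flies chiefly from testis. Testis markers were above 0 at day 10 in 3 of 3 tested genes, with a median of 0.62, and 7 of 17 listed markers had a value. The marker medians on the day 10 arrays were 0.43, 0.30, 0.78 and 0.51 in replicates 1 to 4, over 2 or 3 genes each. In replicate 3 the markers ranged from -2.0 to 1.61. The day 14 marker medians were 0.43, 0.14 and -0.03 in replicates 1 to 3, over 1 to 4 genes. Vha36-2 was higher in replicates 3 and 4 of day 10 than in replicate 1, and Vha68-3 was at 0.14 in both replicates 1 and 3. Vha68-3 was highest at day 10 in replicate 4 (0.43) and lowest in replicate 2 (-0.09), and the markers were highest in replicate 3. VhaAC39-2 was at 0.53 in replicate 3 and at -0.46 in replicate 4, where its twin spots lay 1.23 apart. At day 14 Vha68-3 was highest in replicate 1 and lowest in replicate 3, the same order as the markers over those 3 arrays. Vha36-2 had another order there, lowest in replicate 1 (-0.23) and highest in replicate 2 (0.21). The part of testis RNA in the values of Vha68-3, Vha36-2 and VhaAC39-2 was not tested. Malpighian tubules are rich in this pump. Of 19 tubule markers 13 had a value. At day 14, 2 of 5 tested tubule markers were above 0 (median -0.12), against 5 of 9 at day 10 (median 0.01). Their array medians ran from -0.30 (4 genes) to 0.22 (2 genes) at day 14. Those of day 10 ran from 0.04 to 0.07, over 8 to 11 genes. At day 14, replicate 3, the array with the highest V-ATPase median, stood at -0.05. Fat body markers were above 0 in 2 of 6 tested genes at day 14 (median -0.14) and in 8 of 9 at day 10 (median 0.37). Glial markers were above 0 in 1 of 3 at day 14 and in 1 of 6 at day 10. Other markers stood above 0 at day 14 as the pump genes did: photoreceptor markers in 6 of 6 tested genes (median 0.11), against 4 of 7 at day 10 (median 0.06), and muscle markers in 3 of 3 (median 0.12), against 3 of 4 at day 10 (median 0.04). The neuronal gene nSyb, a synaptic vesicle protein, averaged 0.22 at day 14 and 0.17 at day 10. The other neuronal marker with a value, unc-13, averaged -0.18 at day 10 and was not tested at day 14. Photoreceptor (0.18), fat body (0.32), glial (0.06) and gut markers (0.01) also had their highest array median of day 14 in replicate 3. Testis (0.43) and muscle markers (0.285) had theirs in replicate 1. Neuronal markers had theirs in replicate 2 (0.26, 1 gene) and tubule markers in replicate 4 (0.22, 2 genes). None of these markers was called, and their part in the V-ATPase values was not tested.

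Genes that work with the pump were described from lists. Of the accessory and assembly list, 4 of 7 genes were tested at each of days 10 and 14 and none was called. ATP6AP2, the second accessory protein, was highest at day 14 with 0.25 (SE 0.15, adjusted p = 0.788 in limma), and CG5149 lowest at both days, with -0.09 (SE 0.12) at day 14 and -0.40 (SE 0.14, adjusted p = 0.245 in limma) at day 10. CG7071 was highest at day 10 with 0.22 (SE 0.16). None of the 5 listed vesicular transporters, which spend the proton gradient to load transmitter, had a value. Of the mTORC1 list 3 of 9 genes had a value and 1 was tested per day, S6k at day 14 with -0.05 and Lamtor2 at day 10 with 0.01.

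Lysosomal genes were above 0 in 8 of 9 tested members at day 14 (median 0.16) and in 7 of 17 at day 10 (median -0.02), and none was called at either day. Npc2a, a sterol carrier of the lysosome, was highest at day 14 with 0.40 (SE 0.15, adjusted p = 0.654 in limma), and the chloride channel gene ClC-c lowest with -0.24 (SE 0.12). At day 10 the lysosomal channel gene Trpml was highest with 0.89 (SE 0.17, adjusted p = 0.110 in limma), and Cln3 lowest with -0.27 (SE 0.15). At day 8, 1 of 2 tested members was called lower, the lysosomal permease gene spin at -1.0 (SE 0.20, adjusted p = 0.0146 in limma). That call borrows its error from the other days. With the day 8 spread raised by 2.02, the ratio of the SDs of twin-spot differences, spin was no longer called. By the median absolute difference, twin spots at day 8 (0.142 to 0.17) lay within the range of the other days (0.122 to 0.2). The means of spin were -0.03 at day 10 and 0.06 at day 14.

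The ATP synthase of mitochondria is the other rotary ATPase of the cell and runs in the opposite sense, making ATP. At day 14, 5 of 7 tested genes of it were above 0, with a median of 0.09, and at day 10 also 5 of 7, with a median of 0.05. ATPsynD was highest at day 14 with 0.26 (SE 0.11) and ATPsynE at day 10 with 0.39 (SE 0.10, adjusted p = 0.155 in limma). None was called, and the difference of day 14 minus day 10 was above 0 for 2 of 6 genes, with a median of -0.10.

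Among 603 genes with a value on all 8 arrays of days 10 and 14, the 5 genes with a pattern most like that of Vha26 were gus (Pearson r 0.97), CG7149 (0.93), CG11147 (0.90), CG9399 (0.90) and ATPsynG (0.89). The 8 arrays share the split into 2 days and the centring of each column. Of the V-ATPase genes measured on all 8 arrays, Vha44 and VhaSFD had an r of 0.62 with Vha26 and VhaAC45 of -0.25. gus averaged -0.09 at day 14 and -0.51 at day 10, so it shared the order of the days with Vha26 but not the sign at day 14.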

How the data were processed

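Each deposited value is the log2 ratio of a spot on an array. Per the series text, the authors quantified images with GenePix Pro 6.0, normalized by ratio in Acuity 4.0 and filtered spots by saturation (under 3% of pixels), regression R2 (0.6 or more) and signal over noise (3 or more). Base 2 is an assumption, since no source used here names it. Spot intensities were not analysed here.

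The platform table names 1 gene for 15116 of 27648 spots, several for 102 (left out) and none for 12430; 14894 names were updated through gene numbers in RefSeq. The median of each column was set to 0, spots were averaged per gene and array, and the 4 identical day 8 columns were averaged as 1 sample. A mean per day was fitted to 9 samples with limma 3.58.1 (R 4.3.3, prior df 5.1) over 5291 genes, and a day's mean was tested where 3 or 4 of its columns had a value. A call is an adjusted p under 0.05 (Benjamini-Hochberg over all genes tested). Each array is 1 replicate, biological per the series text (8 pools of heads, a treated and a control pool in each set), and the day 8 sample borrows its error from the other days. The fit treats the arrays of a day as independent. At day 10, replicates 1 and 2 resembled each other (Pearson r 0.50), as did replicates 3 and 4 (0.55). The SDs, intervals and p-values that rest on day 10 do not allow for this. The fit was checked on simulated data drawn with independent arrays, so that check does not bear on this likeness of day 10 arrays. Alternatives covered the centring and scaling of columns, the averaging and filtering of spots, the signs of day 10 arrays, a replicate block, each array left out and a local median of spot numbers. V-ATPase genes were all reported. The 5 genes most like Vha26 and the extremes of each list were named by rule. Members and lists were chosen with earlier results of these data known.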

Additional observations from a re-analysis of the deposited data

Results flagged for a closer look

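Vha26 was marked because every day 14 array lay above 0 and every day 10 array below 0, with a difference of day 14 minus day 10 of 0.6191. The difference was tested in limma and did not pass (adjusted p = 0.641, 0.337 to 0.827 over the settings that left out 1 array). Against the spots numbered around it, 1 of the 4 day 10 arrays lay above 0. No array of the 11 sets of 4 values of a V-ATPase gene at day 10 or 14 stood apart from the other arrays by Dixon's criterion.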

How the results depend on the processing

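No V-ATPase gene was called under any alternative except the values as deposited, which called all 8 at day 14 and all 7 in the difference, with 3001 of 3010 and 2352 of 2385 genes. There the family median was -0.14 at day 10, 1.28 at day 14 and 1.44 in the difference, against 1.38 over all genes. Day 10 was then lower for Vha68-3 (-0.092), Vha44 (-0.19), VhaSFD (-0.25) and Vha100-4 (-0.24), and the difference was above 0 for Vha55 (0.95), Vha36-2 (1.24) and VhaAC45 (1.119). With day 10 replicates 1, 2 and 3 turned, day 10 was -0.086 for Vha44, 0.25 for Vha26, -0.23 for Vha100-4 and -0.077 for VhaAC45, and the difference was 0.10 for Vha55, -0.041 for VhaSFD and 0.15 for VhaAC45. Scaling columns to 1 median absolute deviation gave -0.023 for VhaSFD at day 10. The local median of spot numbers, chosen after seeing the data, gave -0.061 for Vha36-2 at day 14 and -0.12 for VhaSFD and -0.012 for Vha100-4 at day 10. The cause was not tested.

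Leaving out 1 array called 0 to 80 genes at day 10 (80 without replicate 1, 14 without replicate 2 and 1 without replicate 4), 0 at day 14 and 0 to 3 in the difference (3 without day 10 replicate 1), and moved the family median in the difference between -0.11 and 0.14. Signs turned for Vha68-3 without day 14 replicate 1 (range -0.034 to 0.53 at day 14, -0.19 to 0.38 in the difference), Vha55 at day 14 without replicate 3 (-0.065 to 0.21), Vha36-2 at day 14 without replicate 2 (-0.074) or 3 (-0.0073), up to 0.14 without replicate 1, VhaSFD at day 10 without replicate 4 (-0.11 to 0.060) and Vha100-4 at day 10 without replicate 1 (-0.093) or 2 (-0.11), up to 0.16 without replicate 4. Calls at day 8, 19 as reported, were 8 with values as deposited, 11 without spots over 1 apart, 29 with at least 2 of 4 columns, 11 with the local median and 4 with the day 8 spread raised.

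Whether replicate numbers pair the arrays of days 14 and 10 is not settled. Same-number correlations were 0.02, 0.34, 0.25 and 0.16 over 604 genes, and 2 of 4 arrays were closest to their own number. With the replicate number as a block, 0 genes were called in the difference and the family median was 0.12. Missing values limit Vha16-1, Vha100-4 and VhaAC39-2 most, and which filter removed their spots is not known here.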
